A study of Mus musculus with 24 samples.

Results

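Cholesterol cannot cross from the blood into the brain, so brain cells make their own. Synthesis starts from acetyl-CoA, passes through mevalonate and the isoprenoids to squalene, and ends in a series of changes to the sterol ring. Astrocytes and myelinating oligodendrocytes are known as the main producers in the adult brain, while mature neurons lean on sterol that glia release. The genes of the pathway share a regulator: when sterol in the endoplasmic reticulum runs low, the transcription factor SREBP-2, the product of Srebf2, is cut free of the membrane and binds sterol regulatory elements in their promoters.

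7 genes of this pathway were followed by symbol, of 55254 genes with a row in the count tables. They are Hmgcs1, Idi1, Fdft1, Sqle, Cyp51 and Dhcr7, which encode enzymes, and Srebf2. All 7 passed the filter on low counts in every fit. None of the 7 encodes an uptake receptor, so the genes of sterol uptake appear below only as a separate list.

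The data are RNA-seq of nuclear RNA from hippocampi of male C57BL/6N mice aged 6 months, without behavioural or other treatment in the labels. Nuclei were sorted into NeuN+ (neuronal) and NeuN- (non-neuronal) fractions by flow cytometry with an antibody to the neuronal nuclear protein NeuN. The 4 genotypes were wild type (WT), Mutyh-/-, Ogg1-/- and the double knockout Ogg1-/- x Mutyh-/- (DKO). Ogg1 and Mutyh are DNA glycosylases of base excision repair that act on oxidised guanine and on adenine mispaired with it. Each of the 8 groups held 3 libraries, 24 in all. Nuclei were pooled over animals. The study describes its replicates in general as independent and biological, but how the pools map to the 3 libraries of a group is not stated, so p-values measure the spread between these libraries, which may be technical.

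Library totals were 56563586 to 96192142 counts. The summed level of 8 neuron markers was 6175 to 7243 CPM, the counts scaled to library size, in NeuN+ libraries and 665 to 831 CPM in NeuN- libraries, while that of 5 oligodendrocyte markers was 117 to 140 CPM in NeuN+ and 4501 to 6765 CPM in NeuN-, so the sort labels were met. The targeted genes did not show the deletions. Mutyh was 7.74 to 11.1 CPM in NeuN+ libraries labelled Mutyh-/- or DKO against 1.05 to 1.18 CPM in WT, the opposite of a loss, and 7.21 to 10.5 CPM against 2.60 to 3.07 CPM in NeuN-. Ogg1 was 2.95 to 3.34 CPM in NeuN+ libraries labelled Ogg1-/- or DKO against 2.54 to 3.49 CPM in WT. The counts cover whole genes, so reads outside a deleted part are included and these levels do not show whether a gene was lost. In libraries labelled Ogg1-/-, Mutyh was 1.04 to 1.29 CPM in NeuN+ and 3.19 to 3.56 CPM in NeuN-. The Mutyh level thus separated libraries labelled Mutyh-/- or DKO from the others. The Ogg1 level did not separate those labelled Ogg1-/- or DKO from WT. Groups are therefore named as labelled.

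Start-site sequences are shown for the members that the RefSeq promoter table holds (5 of 7, GRCm38.p6), since a shared regulator is what the pathway is known for. Each line below is the 150 bases just before the start site, 5′ to 3′ on the gene's strand. Capitals mark exact matches, on either strand, to the core of the sterol regulatory element (TCACNCCAC, N for any base), the CCAAT box bound by NF-Y (CCAAT), the E-box (CACGTG) and the GC box bound by Sp1 (GGGCGG).
Hmgcs1: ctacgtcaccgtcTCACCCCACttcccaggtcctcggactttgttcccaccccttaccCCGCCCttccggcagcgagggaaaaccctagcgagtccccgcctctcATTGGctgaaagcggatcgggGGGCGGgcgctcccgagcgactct
Idi1: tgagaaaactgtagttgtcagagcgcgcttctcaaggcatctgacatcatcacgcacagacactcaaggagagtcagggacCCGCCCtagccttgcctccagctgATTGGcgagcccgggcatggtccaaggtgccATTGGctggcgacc
Cyp51: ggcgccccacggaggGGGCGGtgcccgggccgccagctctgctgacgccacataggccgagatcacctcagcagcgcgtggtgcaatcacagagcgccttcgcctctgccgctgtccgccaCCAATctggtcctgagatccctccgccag
Dhcr7: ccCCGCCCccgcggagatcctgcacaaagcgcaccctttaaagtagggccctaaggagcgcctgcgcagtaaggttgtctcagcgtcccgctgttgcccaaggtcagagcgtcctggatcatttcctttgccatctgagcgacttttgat
Srebf2: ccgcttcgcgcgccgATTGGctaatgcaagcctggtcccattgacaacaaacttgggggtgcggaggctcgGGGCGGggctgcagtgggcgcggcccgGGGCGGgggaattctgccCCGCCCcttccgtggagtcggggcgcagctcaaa

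The 5 stretches lie at chr13:119690201-119690350 (Hmgcs1, plus strand), chr13:8885456-8885605 (Idi1, plus), chr5:4104698-4104847 (Cyp51, minus), chr7:143823017-143823166 (Dhcr7, plus) and chr15:82147119-82147268 (Srebf2, plus). Over the full window of 250 bases before to 50 after a start site, the sterol regulatory element core stood in Hmgcs1 alone among the members, 137 to 129 bases before the start, and in 1.24% of the 32851 promoters searched. The CCAAT box stood in the windows of Hmgcs1 (4 matches), Idi1 (2), Cyp51 (1) and Srebf2 (1), and in 37.4% of all promoters, and the GC box, which all 5 members held, in 35.7%. Dhcr7 has 3 start sites in the table. The stretch above is the site nearest the annotated 5′ end, a second site held the only E-box among the members (7.15% of all promoters), and the third held 2 CCAAT boxes. A match is a description of the letters and not evidence of binding, and the absence of a core says only that these letters are not in this window.

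In WT nuclei, all 7 members were lower in NeuN+ than in NeuN- nuclei. Levels between genes are compared here as CPM per kb of exon, with all 24 libraries scaled together. Srebf2 was the highest in both fractions, at 11.1 ± 0.848 CPM per kb in NeuN+ and 18.6 ± 0.305 in NeuN- (SD, n = 3). Fdft1, the squalene synthase, followed at 7.47 ± 0.512 and 13.6 ± 0.181 CPM per kb. Hmgcs1, the cytosolic synthase that makes HMG-CoA, was at 4.97 ± 0.298 and 7.33 ± 0.513 CPM per kb, and Cyp51, the lanosterol demethylase, at 3.63 ± 0.229 and 4.99 ± 0.0698. Sqle, the squalene epoxidase, and Dhcr7, the reductase of the last step of the Kandutsch-Russell branch, did not separate from each other in either fraction, since their libraries overlapped (Sqle 1.96 to 2.35 and Dhcr7 1.92 to 2.19 CPM per kb in NeuN+, Sqle 3.25 to 3.46 and Dhcr7 3.31 to 3.65 in NeuN-). Idi1, the isomerase that interconverts the isoprenoid units, was the lowest at 1.29 ± 0.220 and 2.83 ± 0.327 CPM per kb. All other neighbours in the order were apart in every library of a fraction.

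**Figure D1:**
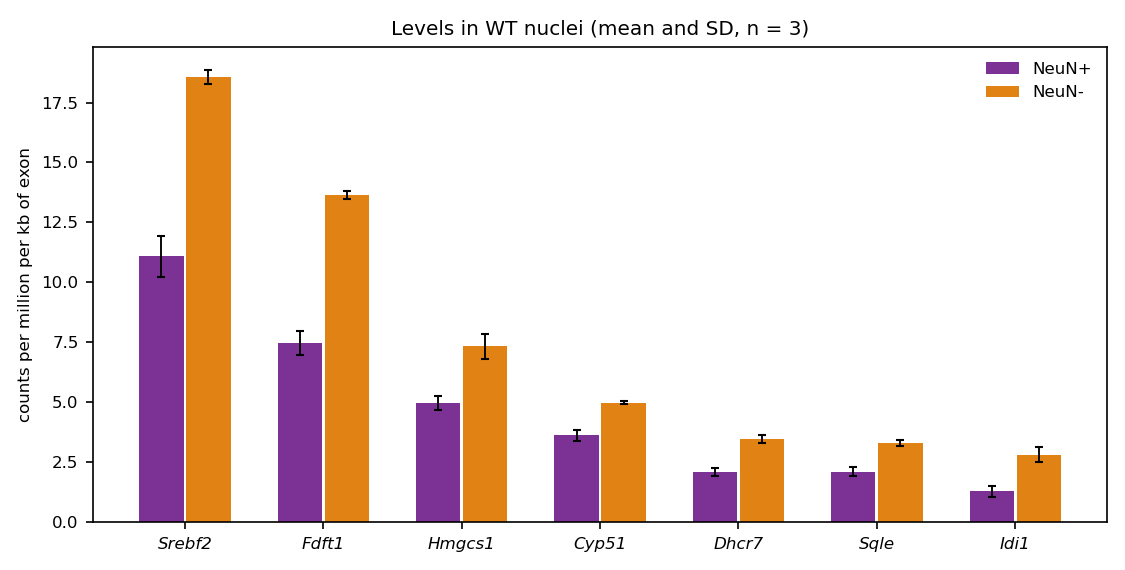
Mean level (bars, CPM per kb of exon, 24 libraries scaled together) and SD (n = 3 libraries) of the 7 genes in NeuN+ and NeuN- nuclei of WT mice. Every gene is lower in NeuN+ nuclei, and Srebf2 and Fdft1 are the highest in both fractions.

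The largest difference between the fractions was that of Idi1. Its levels in the 3 NeuN+ WT libraries were 3.71, 5.25 and 4.64 CPM and in the NeuN- WT libraries 8.59, 10.6 and 10.6 CPM. The groups did not overlap, and the difference was -1.13 on the log2 scale (SE 0.163, adjusted p = 1.81e-06). Fdft1 was at 29.1, 33.1 and 32.6 CPM in NeuN+ and 56.8, 58.0 and 58.2 CPM in NeuN- (log2 difference -0.87, SE 0.0946, adjusted p = 2.42e-08). Srebf2 differed by -0.74 (SE 0.0603), Dhcr7 by -0.72 (SE 0.0764), Sqle by -0.65 (SE 0.121), Hmgcs1 by -0.56 (SE 0.111) and Cyp51 by -0.46 (SE 0.112), with adjusted p from 1.61e-10 (Srebf2) to 0.000953 (Cyp51). For each of the 7, all NeuN+ WT libraries lay below all NeuN- WT libraries. The share of all genes that separated in this way was not computed. At an adjusted p below 0.05, 24259 of all genes tested differed between the fractions in either direction. Of all 33523 genes tested, 36.3% were higher in NeuN- at an adjusted p below 0.05, and the log2 difference passed -1 for 21.6%, against 1 of the 7 members. The labels give separate sequencing lanes for the fractions, so the lane cannot be told apart from the fraction, and in bulk libraries fewer cells of a type cannot be told apart from less RNA per cell.

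The rest of the pathway was mostly lower in NeuN+ as well. Of the 16 other genes listed for sterol synthesis, 11 were lower in NeuN+, 2 were higher and 3 did not pass (median log2 difference -0.65, against -0.01 over all genes). The list also takes in Ggps1, of the prenyl branch, and the mitochondrial Acat1, so not all its genes are steps towards sterol. Mvk, the mevalonate kinase, was at 7.44 ± 1.03 CPM in NeuN+ and 17.4 ± 0.898 CPM in NeuN- (SD, n = 3, log2 difference -1.23, adjusted p = 9.79e-10), and Acat1, the mitochondrial thiolase, went the other way (log2 difference 0.50, adjusted p = 1.08e-09). In the sterol arm, Lbr, a sterol reductase that is also a nuclear envelope protein, had the largest difference (-1.65), and Sc5d, the lathosterol oxidase, did not pass (0.02, adjusted p = 0.767). Among 9 other regulators of the SREBP pathway, 6 were lower in NeuN+ and 2 higher. Srebf1, the relative of Srebf2 that drives lipogenesis, was at 11.3 ± 0.844 CPM in NeuN+ and 83.6 ± 10.4 CPM in NeuN- (log2 difference -2.88), and Insig2, which retains SREBP in the endoplasmic reticulum, was 0.28 higher in NeuN+.

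Genes of sterol handling differed in both directions. Of 10 uptake and trafficking genes, 8 were lower and 2 higher in NeuN+, with Npc2, the lysosomal sterol carrier, at -2.68 and Lrp8, the reelin and apolipoprotein receptor, at 1.17 on the log2 scale. Of the 9 tested genes of export, storage and turnover, 6 were lower and 3 higher. Cyp27a1, a sterol hydroxylase, was at 0.310 ± 0.0137 CPM in NeuN+ and 23.6 ± 2.34 CPM in NeuN- (log2 difference -6.24, SE 0.131), while Cyp46a1, the neuronal hydroxylase by which the brain clears cholesterol, was at 45.5 ± 1.73 and 14.3 ± 0.813 CPM (1.67, SE 0.057). Of 8 SREBP-1 fatty acid enzymes, 6 were lower in NeuN+, with Scd1, the stearoyl-CoA desaturase, at -3.85, and 1 was higher, Me1, the cytosolic malic enzyme, at 0.56.

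In NeuN- nuclei, each knockout was set against WT to ask whether sterol genes of non-neuronal cells differ between the genotypes. Hmgcs1 was lower in the libraries labelled Mutyh-/-, and no other member passed in any genotype. Hmgcs1 was at 33.9, 39.2 and 37.3 CPM in WT and at 26.9, 27.5 and 30.5 CPM in Mutyh-/- libraries. All 3 Mutyh-/- libraries lay below all 3 WT libraries, a mean of 28.3 ± 1.96 against 36.8 ± 2.71 CPM (SD, n = 3), as did 10.2% of all genes. The log2 fold change was -0.38 (SE 0.0685, 95% interval -0.528 to -0.230), a level 23.1% lower, at an adjusted p of 0.0426. This stayed short of the log2 fold change of 0.5 that the study asked of a differentially expressed gene. Of all 31863 genes tested, 0.32% passed the adjusted p in Mutyh-/- against WT and 0.273% passed both criteria, against 1 and 0 of the 7 members.

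The call of Hmgcs1 sat close to the threshold. It was lost when any of 4 of the 6 libraries was left out: WT replicate 2 (adjusted p = 0.248), WT replicate 3 (0.155), Mutyh-/- replicate 1 (0.265) or Mutyh-/- replicate 2 (0.198). It was also lost with the replicate number as a block (0.0886) and with only the 2 genotypes in the fit (0.0729). The log2 fold change itself stayed between -0.44 and -0.33 over all 13 alternatives. The annotated antisense gene Gm48342 shares 557 exon bases (12.1%) with Hmgcs1. It had 1099 to 1294 counts in WT and 901 to 1004 in Mutyh-/- NeuN- libraries, a log2 fold change of -0.38 (adjusted p = 0.107). Its log2 fold changes in the other comparisons with WT were also near those of Hmgcs1, at -0.31 (Ogg1-/-) and -0.27 (DKO) in NeuN- and at -0.29 (Mutyh-/-), -0.31 (Ogg1-/-) and -0.26 (DKO) in NeuN+. The strand setting of the counting is not given in the sources used here. Reads of the shared bases thus cannot be assigned with certainty in any of these 6 comparisons. Fdft1 (774 bases, 18.3%, with Ctsb), Idi1 (323, 9.2%, Gm48574) and Cyp51 (166, 3.76%, Akap9) also share exon bases with a gene on the other strand. The same limit holds for their values and for the fractions above. Between the WT fractions Ctsb differed by -0.81, Akap9 by -0.70, Gm48342 by -0.60 and Gm48574 by -0.95 (adjusted p = 0.153) on the log2 scale.

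The other members in Mutyh-/- NeuN- nuclei were all on the lower side without passing. Cyp51 was at 23.6, 24.3 and 24.3 CPM in WT and at 18.5, 18.5 and 23.8 CPM in Mutyh-/- libraries (log2 fold change -0.25, SE 0.0854, adjusted p = 0.241). Sqle was at 19.7, 21.1 and 19.6 CPM in WT and at 16.2, 15.2 and 19.7 CPM in Mutyh-/- (-0.24, SE 0.0871, adjusted p = 0.261). Dhcr7 was at 23.1, 21.9 and 21.0 CPM in WT and at 18.3, 17.5 and 21.2 CPM in Mutyh-/- (-0.21, SE 0.0671, adjusted p = 0.220). In each of these 3 genes, replicates 1 and 2 were below every WT library while replicate 3 was within the WT range. Fdft1 showed the same order of libraries at 55.5, 53.1 and 62.5 CPM against 61.9 to 63.7 CPM in WT (-0.14, adjusted p = 0.298). Idi1 (-0.14, adjusted p = 0.517) and Srebf2 (-0.03, adjusted p = 0.786) had values that overlapped WT. The median log2 fold change of the 7 was -0.21, against -0.01 over all genes and -0.03 over the 16 other genes listed for sterol synthesis. At an unadjusted p below 0.05, the edgeR test held 5 of the 7 members in NeuN- Mutyh-/-, where 4359 of all 31863 genes did. In NeuN- Ogg1-/- and DKO it held 1 member each (Hmgcs1), where 3768 and 3940 of all genes did. The members were chosen with earlier results of these data known, so their median and these counts are a description only.

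**Figure D2:**
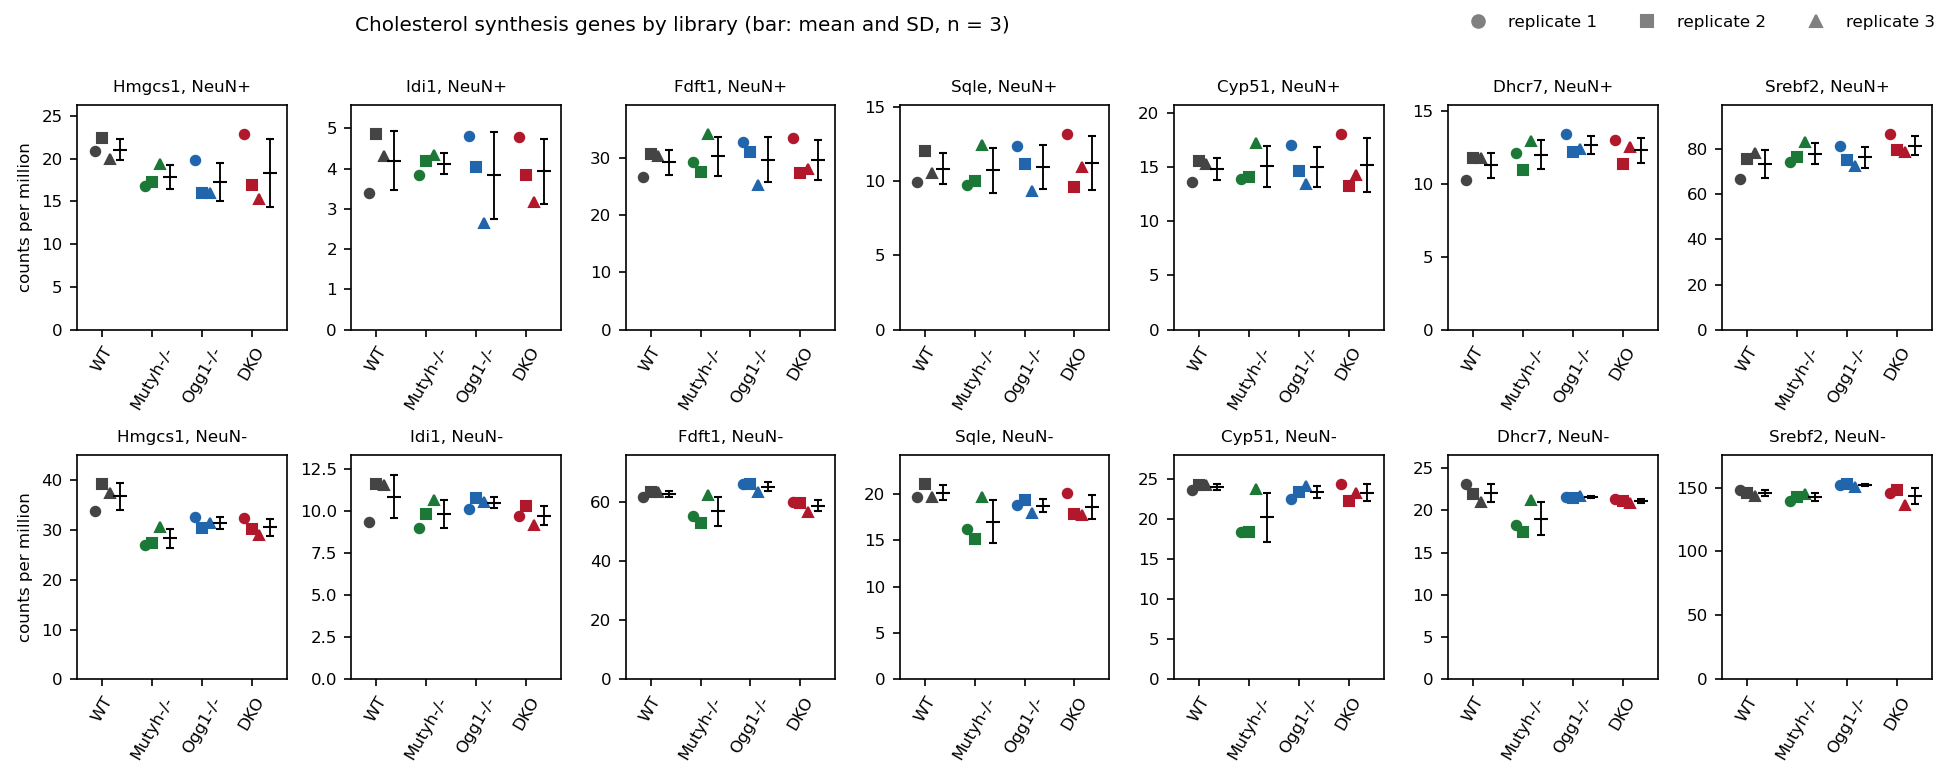
Level of each gene (CPM, linear axis from 0) in every library of NeuN+ (upper row) and NeuN- nuclei (lower row), with the 3 replicates of each genotype as circle, square and triangle and the mean and SD beside them. In NeuN- nuclei the Hmgcs1 libraries of all 3 knockouts lie below WT, and the third Mutyh-/- library (triangle) is the highest of its group for all 7 genes.

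The count of calls depended on which library was left out, and it rose only without the third Mutyh-/- library. Without it, 5 of the 7 members passed in NeuN- Mutyh-/- against WT: Hmgcs1 (log2 fold change -0.44, adjusted p = 0.0136), Cyp51 (-0.38, adjusted p = 0.0105), Sqle (-0.36, adjusted p = 0.0274), Dhcr7 (-0.30, adjusted p = 0.0217) and Fdft1 (-0.21, adjusted p = 0.0419). Over all genes the share that passed without it was 2.62%, so that library bore on many genes besides these. With Mutyh-/- replicate 1 or 2 left out in its place, 0 members passed (0.124% and 0.192% of all genes). Summed over the 6 enzymes, the NeuN- level was 172, 182 and 177 CPM in WT and 144, 142 and 168 CPM in Mutyh-/- libraries, against 172, 172 and 169 CPM in Ogg1-/- and 168, 162 and 157 CPM in DKO.

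Marker levels of the main glial types in NeuN- Mutyh-/- libraries overlapped those of WT. The summed level of 6 astrocyte markers was 2853 to 3745 CPM against 2789 to 3314 CPM in WT, and that of 5 oligodendrocyte markers 5505 to 6765 against 5911 to 6645 CPM, with median log2 fold changes of 0.02 and -0.06 and no marker at 0. The 5 choroid plexus markers summed to 24.8 to 29.5 CPM, below the 40.1 to 67.0 CPM of WT. None of these markers passed in Mutyh-/- against WT. Their part in the Hmgcs1 result was not tested.

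In the other 2 knockouts Hmgcs1 was again below every WT library of NeuN- nuclei without passing. It was at 32.7, 30.3 and 31.4 CPM in Ogg1-/- (log2 fold change -0.23, SE 0.0686, adjusted p = 0.220) and at 32.3, 30.3 and 29.0 CPM in DKO (-0.27, SE 0.0685, adjusted p = 0.175). With DESeq2 in place of edgeR, the DKO value passed (-0.27, adjusted p = 0.0374). The 3 comparisons share the same 3 WT libraries, so they are not independent. The other 6 members had log2 fold changes of -0.10 to 0.06 in Ogg1-/- and of -0.16 to -0.02 in DKO, and 0 of 7 members passed in either (0.342% and 0.179% of all genes by adjusted p, 0.229% and 0.116% with the fold criterion). Without overlap with WT, beyond Hmgcs1, lay Sqle (below) and Srebf2 (above) in Ogg1-/- and Fdft1 (below) in DKO. For all genes, the share below WT without overlap was 10.7% in Ogg1-/- and 9.15% in DKO, and that above 9.12% in Ogg1-/-. Beside these values, the 6 astrocyte markers had a median log2 fold change of 0.25 in each of the 2 genotypes and the 5 oligodendrocyte markers of -0.22, with 1 of them, the astrocyte gene Aldh1l1, past the adjusted p in Ogg1-/-. The 8 neuron markers had medians of -0.24 in Ogg1-/- and -0.27 in DKO. The 5 choroid plexus markers had 0.54 and 1.11, with sums of 15.6 to 101 CPM in Ogg1-/- and 14.0 to 221 CPM in DKO. The part of these cell types in the Hmgcs1 values was not tested.

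**Figure D3:**
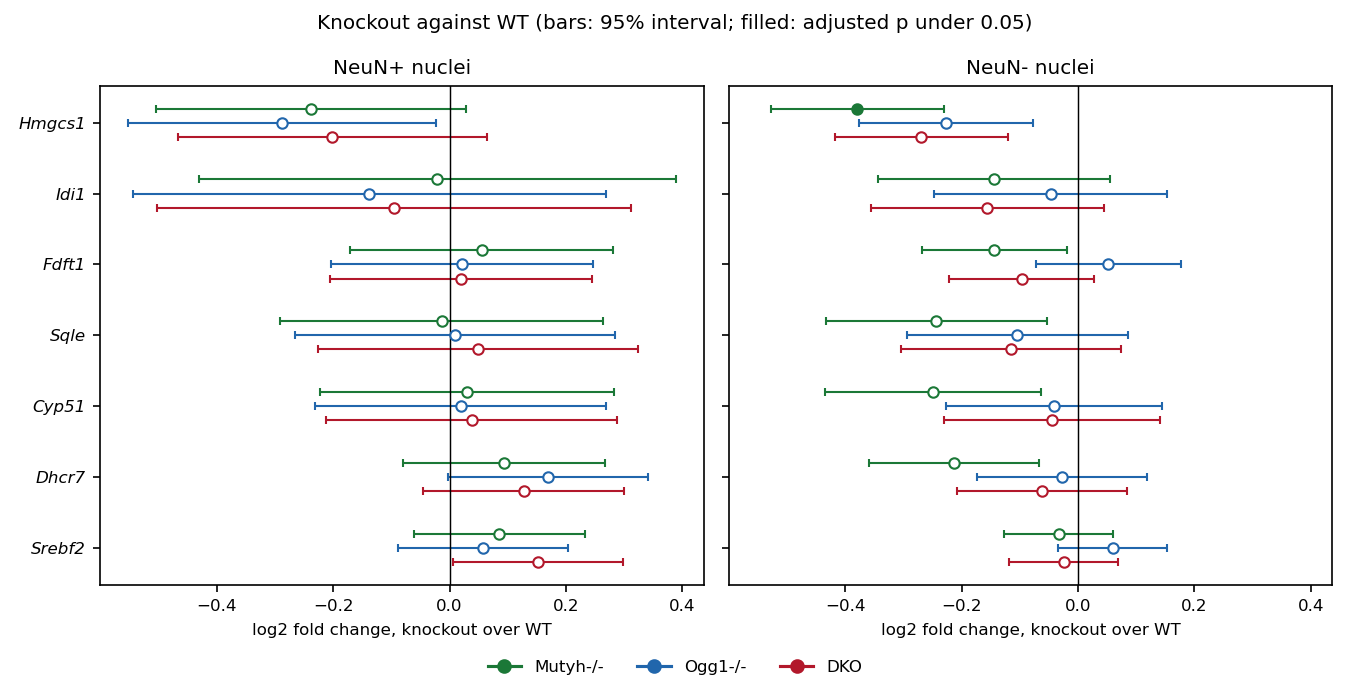
Log2 fold change of each gene in each knockout over WT, with 95% intervals from edgeR's quasi-likelihood fit, in NeuN+ (left) and NeuN- nuclei (right). Hmgcs1 is to the left of 0 in all 6 comparisons and is filled, for an adjusted p below 0.05, only in NeuN- Mutyh-/-.

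In NeuN+ nuclei, no member changed at an adjusted p below 0.05 in any knockout (0 of 7 in each). Of all 30132 genes tested, 0.641% passed in Mutyh-/-, 1.1% in Ogg1-/- and 0.494% in the double knockout, or 0.428%, 0.574% and 0.302% with the fold criterion. At an unadjusted p below 0.05, the edgeR test held 0 members in Mutyh-/-, 1 in Ogg1-/- (Hmgcs1) and 1 in DKO (Srebf2), where 5633, 3718 and 4064 of all genes did, so these counts are near the background. DESeq2 also called 0 members in each after adjustment. Hmgcs1 was at 20.9, 22.4 and 20.0 CPM in WT. It was at 16.8, 17.3 and 19.4 CPM in Mutyh-/- (log2 fold change -0.24, SE 0.125, adjusted p = 0.327), at 19.9, 16.0 and 15.9 CPM in Ogg1-/- (-0.29, SE 0.124, adjusted p = 0.352) and at 22.9, 16.9 and 15.2 CPM in DKO (-0.20, SE 0.124, adjusted p = 0.510). The Mutyh-/- and Ogg1-/- libraries lay below all WT libraries, and the DKO libraries overlapped WT through replicate 1. Of all genes, 10.8% lay below WT without overlap in Mutyh-/- and 10.2% in Ogg1-/-. Beside these values, the 6 astrocyte markers had median log2 fold changes of -0.22 (Mutyh-/-), -0.10 (Ogg1-/-) and -0.25 (DKO) in NeuN+. In the same order, the 5 oligodendrocyte markers had -0.19, 0.01 and -0.43 and the 8 neuron markers 0.06, -0.09 and -0.05. None of these markers passed, and their part in the NeuN+ Hmgcs1 values was not tested.

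The remaining enzymes were near WT in NeuN+ nuclei. Across the 3 knockouts Fdft1, Sqle and Cyp51 had log2 fold changes of -0.01 to 0.06, with 95% intervals that reached -0.291 and 0.324, both for Sqle. Idi1, the gene with the fewest counts (229 to 385 in NeuN+ libraries), had -0.14 to -0.02. Its intervals reached -0.544 and 0.389, so the data do not exclude changes up to about that size. Dhcr7 had 0.09 in Mutyh-/-, 0.17 in Ogg1-/- and 0.13 in the DKO, and its Ogg1-/- libraries (13.4, 12.2 and 12.4 CPM) lay above WT (10.2, 11.8 and 11.8 CPM, adjusted p = 0.414). Srebf2 was at 66.6, 75.6 and 78.4 CPM in WT and at 86.7, 79.6 and 78.7 CPM in DKO, all above WT (0.15, SE 0.0685, adjusted p = 0.354). Those 2 genes were the only members above WT without overlap in NeuN+, where 9.07% (Ogg1-/-) and 7.33% (DKO) of all genes were.

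Among the other genes of the pathway, 1 non-member passed against WT in the 6 comparisons. Nsdhl, the sterol dehydrogenase of the demethylation complex that follows Cyp51, was higher in NeuN+ Mutyh-/- nuclei at 20.3 ± 1.49 CPM against 13.6 ± 1.21 CPM in WT (SD, n = 3, log2 fold change 0.58, SE 0.102, adjusted p = 0.0172). Its libraries spanned 18.6 to 21.4 CPM in Mutyh-/- and 12.5 to 14.9 CPM in WT, without overlap. In the 5 other comparisons its log2 fold change was 0.17 to 0.35 without passing. The call was lost without WT replicate 1 (adjusted p = 0.0967) or 2 (0.108) or without Mutyh-/- replicate 1 (0.0969) or 2 (0.0674). Nsdhl lies on chromosome X. The other 51 non-members tested, of 53 listed over the 6 lists, did not pass against WT in either fraction. In NeuN- Mutyh-/- the 8 fatty acid enzymes were all on the lower side (median log2 fold change -0.11), as were 6 of the 9 other genes of the squalene-to-cholesterol arm (median -0.13), with 0 passing in either list, where 51.2% of all genes were on the lower side. The 16 other genes listed for sterol synthesis had a median of -0.03 there.

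No member separated the knockouts from each other. Between DKO and Ogg1-/-, DKO and Mutyh-/-, and Ogg1-/- and Mutyh-/-, 0 of 7 passed in NeuN+ (0.252%, 0.163% and 0.654% of all genes) and 0 of 7 in NeuN- (0.157%, 0.148% and 0.788%). Cyp51 was 0.21 higher in DKO than in Mutyh-/- NeuN- nuclei on the log2 scale (SE 0.0856, adjusted p = 0.419). Between Ogg1-/- and Mutyh-/- in NeuN-, Cyp51 was 0.21 (SE 0.0858, adjusted p = 0.371), Fdft1 0.20 (SE 0.0572, adjusted p = 0.178) and Dhcr7 0.19 (SE 0.0673, adjusted p = 0.297) higher in Ogg1-/- on the log2 scale. Without Mutyh-/- replicate 3 these 3 genes passed (0.34, 0.27 and 0.27, adjusted p = 0.0124, 0.0200 and 0.0332), where 1.92% of all genes did, and so did Cyp51 in DKO against Mutyh-/- (0.34, adjusted p = 0.0291), where 0.444% did. Lipa, the lysosomal acid lipase that frees sterol from lipoproteins, was the only listed gene that passed between knockouts, 0.25 lower in Ogg1-/- than in Mutyh-/- NeuN- nuclei on the log2 scale (SE 0.0509, adjusted p = 0.0474). That call was lost without Mutyh-/- replicate 1 or 2 and without any of the 3 Ogg1-/- libraries, with adjusted p from 0.0851 to 0.282.

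The DKO was also set against the sum of the single knockout effects. No member departed from that sum at an adjusted p below 0.05 (0 of 7 in each fraction, 0.159% of all genes in NeuN+ and 0.122% in NeuN-). Hmgcs1 had the largest departure, 0.34 on the log2 scale in NeuN- (SE 0.0971, 95% interval 0.125 to 0.547, unadjusted p = 0.00458, adjusted p = 0.518) and 0.32 in NeuN+ (SE 0.176, adjusted p = 0.649). The DKO level was thus less low than the single effects added together, without passing the test.

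Nor did a knockout effect differ between the fractions. The effect in NeuN+ minus that in NeuN- passed for 0 of 7 members in Mutyh-/- (0.0209% of all genes), Ogg1-/- (0.0537%) and DKO (0.0567%). For Hmgcs1 the difference was 0.13 in Mutyh-/- (95% interval -0.198 to 0.455), -0.05 in Ogg1-/- (-0.378 to 0.272) and 0.08 in DKO (-0.250 to 0.401). The call in NeuN- Mutyh-/- and its absence in NeuN+ therefore do not show a difference between the fractions. The largest value was that of Dhcr7 in Mutyh-/- (0.29, SE 0.108, adjusted p = 0.432).

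The members moved together from library to library within a genotype. After the mean of each group was taken off log2 CPM, all 21 pairs of members had a positive Pearson r over the 12 libraries of a fraction. In NeuN+ r ran from 0.48 to 0.95 with a median of 0.79, and in NeuN- from 0.06 to 0.91 with a median of 0.54. Sqle with Cyp51 was the closest pair in NeuN+ and Fdft1 with Sqle in NeuN-. Idi1 with Dhcr7 was the loosest in both (0.48 and 0.06). Srebf2 followed the enzymes more closely in NeuN+ (0.65 to 0.87) than in NeuN- (0.25 to 0.49), a contrast that was not tested. The genes of a library share its depth, its scaling and its makeup of cells, so these values describe 12 libraries and are no test. No background over pairs of other genes was computed, so the values do not set these genes apart from others.

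**Figure D4:**
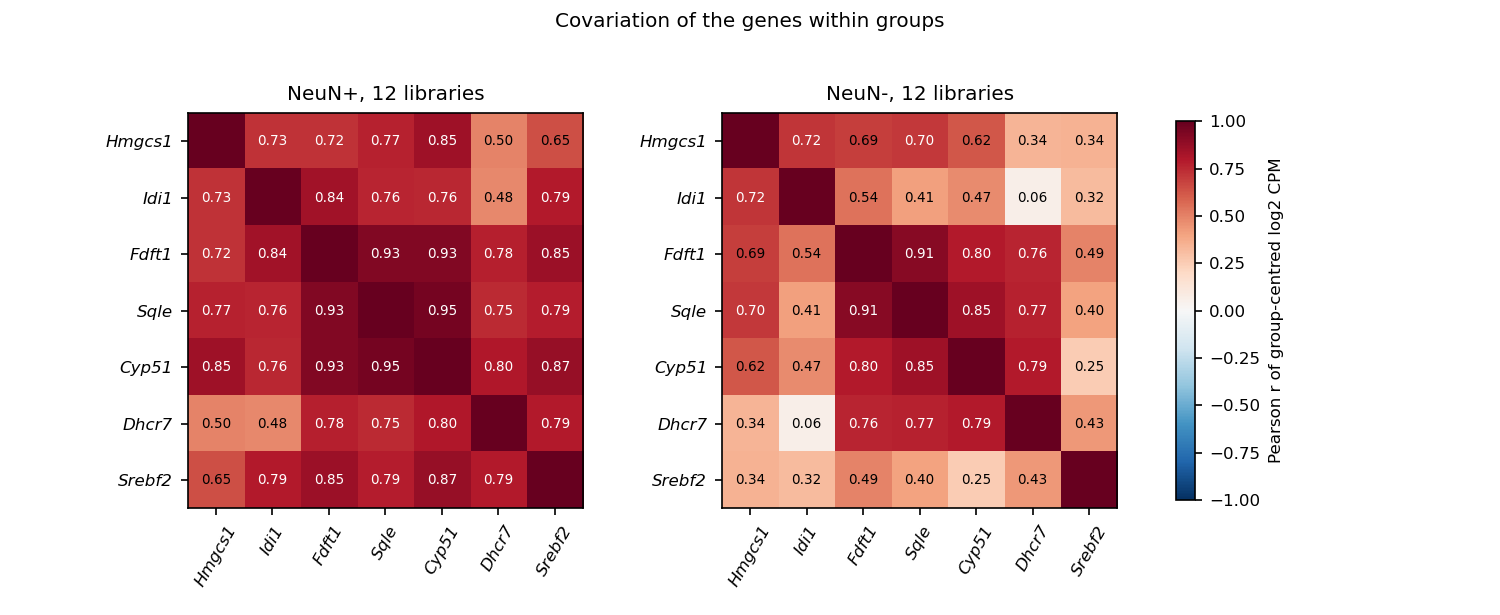
Pearson r (colour, from -1 to 1) between the 7 genes over the 12 libraries of NeuN+ (left) and NeuN- nuclei (right), after the mean of each genotype was subtracted from log2 CPM. All pairs are above 0, with the Fdft1, Sqle and Cyp51 block the strongest in both.

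Some libraries stood apart from their group in the summed level of the enzymes. The 6 enzymes summed to 105, 82.3 and 84.2 CPM in the 3 NeuN+ DKO libraries, to 85.6, 84.0 and 101 CPM in Mutyh-/-, to 100, 89.0 and 79.0 CPM in Ogg1-/- and to 84.8, 97.1 and 92.2 CPM in WT. Thus DKO replicate 1 and Mutyh-/- replicate 3 were high in NeuN+, while the Ogg1-/- libraries spread to both sides of their middle one. The genotype means stayed between 89.4 and 91.4 CPM. Each NeuN+ library was set against the NeuN- library of its genotype and number. The mean deviation of the 6 enzymes from the group had the same sign in 11 of 12 pairs (r = 0.64 over the 12 pairs). Mutyh-/- replicate 3 was high in both fractions. By gene, r ran from 0.28 (Dhcr7) to 0.80 (Sqle) among the enzymes and was 0.18 for Srebf2. Deviations are taken from the mean of 3 libraries, so the 12 pairs are not independent. Over genes with a mean log2 CPM above 2 in both fractions, the equal number was also the best match in 10 of 12 pairs. The sources do not state that equal numbers mark the same pool. Over the 12 libraries of a fraction, the mean deviation of the enzymes had r = -0.22 (NeuN+) and -0.07 (NeuN-) with log2 depth. With summed marker levels the strongest r was -0.57 for microglia in NeuN+ and -0.65 for endothelium in NeuN-. Both were in the direction of lower enzymes where the marker was high. In NeuN-, r was -0.48 for astrocyte, oligodendrocyte and oligodendrocyte precursor markers alike, -0.25 for choroid plexus, -0.13 for microglia and 0.08 for neurons. In NeuN+ the other lists ran from -0.43 (neurons) to 0.33 (oligodendrocyte precursors). The part of cell makeup was not tested.

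**Figure D5:**
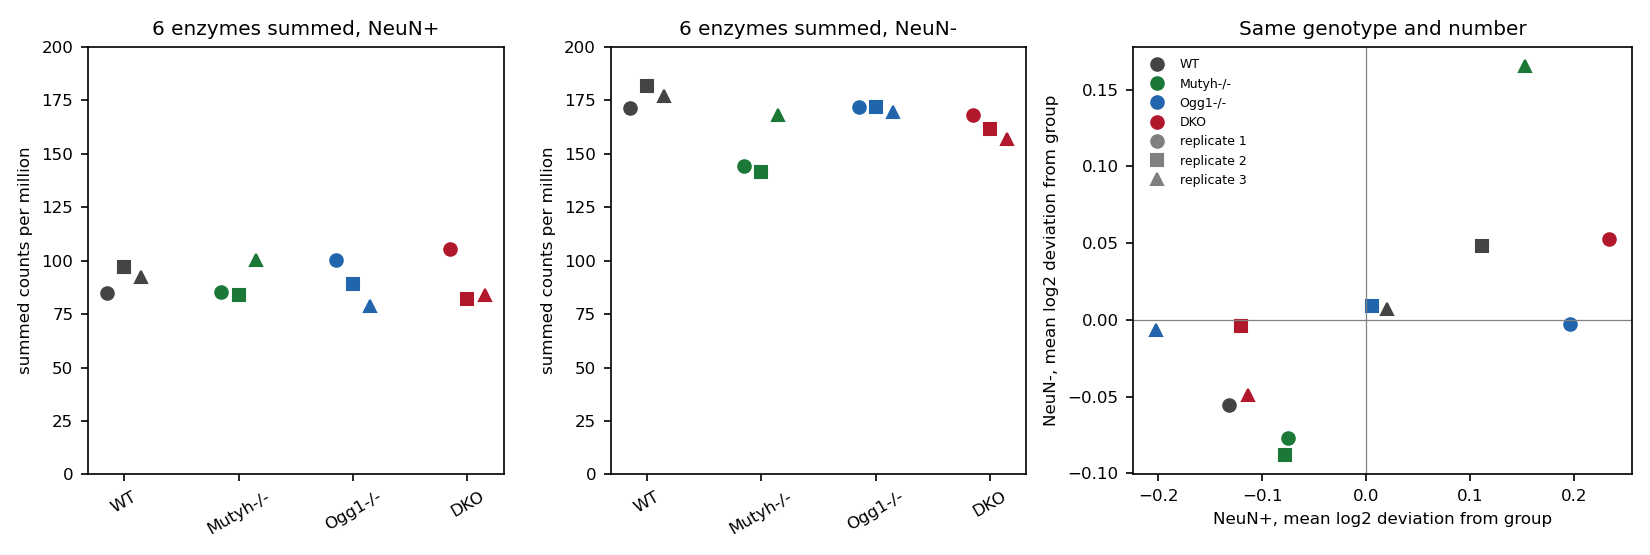
Summed CPM of the 6 enzymes in each library of NeuN+ (left) and NeuN- nuclei (middle), and the mean log2 deviation of the enzymes from their group in NeuN- against NeuN+ libraries with equal genotype and number (right). Mutyh-/- replicate 3 (green triangle) is high in both fractions, and 11 of the 12 points lie in the lower left or upper right quadrant.

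Other genes followed the 6 enzymes within groups. The 5 with the highest r to the mean enzyme profile, among 13688 non-members with a mean log2 CPM above 2 in NeuN+, included Aamdc (r = 0.94) and Msmo1 (0.94). Msmo1, the methylsterol monooxygenase, acts in the same arm of the pathway as Cyp51. In NeuN-, among 14909 genes, the 5 included Ripk2 (r = 0.96), Pi4k2b (0.95), Grk4 (0.94) and Gm10634 (0.94), and these 4 are on none of the pathway lists. These are the highest values of many genes over 12 libraries and describe likeness only.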

How the data were processed

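Per the labels and the study's methods, nuclear RNA libraries were made with a stranded total RNA kit. The authors checked reads with FastQC 0.11.9, aligned them to GRCm38 with HISAT2 2.1.0 and SAMtools 1.10, and counted them per gene with featureCounts. The strand setting is not given in the sources used here. The deposited values are raw counts. From them, genes were filtered with filterByExpr, scaled by TMM and tested with edgeR 4.0.16 (quasi-likelihood, Benjamini-Hochberg over all tested genes), 4 genotypes together within a fraction and all 24 libraries for comparisons of fractions. A differentially expressed gene had an adjusted p below 0.05 and an absolute log2 fold change above 0.5, and 1 between fractions. Errors of fold changes are the fold change over the root of F. CPM used TMM library sizes, and log2 CPM a prior count of 2. CPM per kb used GENCODE exon unions of GRCm38, and promoters were those of RefSeq. The fits were tested on simulated data. Alternatives were RLE scaling, DESeq2 1.42.0, a likelihood ratio test, other filters, each library left out, a replicate block and only the 2 genotypes compared. The named genes were the members, the targets, listed genes past the threshold against WT or otherwise past the adjusted p, the extremes of each list between fractions and the 5 genes most like the enzymes. The members and lists were chosen with earlier results of these data known. Some genes are not reported here.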

Additional observations from a re-analysis of the deposited data

How the results depend on the processing

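Over 31 alternative settings of all fits, 332 of 342 counts of passing members stayed as reported. In NeuN- Mutyh-/- against WT the count of 1 fell to 0 with the replicate block and with only the 2 genotypes compared, and ran from 0 to 5 when single libraries were left out. Under the replicate block Hmgcs1 kept its log2 fold change (-0.38, adjusted p = 0.0886), and with only the 2 genotypes compared it had -0.38 (adjusted p = 0.0729). In NeuN- DKO against WT the count was 1 with DESeq2. Leaving out single libraries gave 0 to 1 in NeuN- DKO against Mutyh-/- and 0 to 3 in NeuN- Ogg1-/- against Mutyh-/-. The block changed no other call of a member. With genotype and number as the block across fractions, 7 members still passed between the fractions and 0 in each test of a knockout effect between them, where counts over all genes went from 7 to 31 (Mutyh-/-), from 18 to 26 (Ogg1-/-) and from 19 to 53 (DKO). Equal replicate numbers correlated above 0.1 in 10 of 12 pairs of fractions, with a mean r of 0.22 against -0.10 for unequal numbers. For knockout and WT, 2 of 9 pairs in each fraction did so. Pairs were to be used only if every pair was above 0.1, so the reported fits use none. For the fractions this does not show that equal numbers are unpaired. The exceptions between fractions were WT replicates 1 and 2. No member fold change that passed in the reported or an alternative fit changed its direction under any of these settings, and 34 of 630 values did without passing in either fit. Among other genes, Nsdhl kept its call with the block and Lipa lost it with the block (adjusted p = 0.0508), with RLE scaling (0.0521) and without a filter (0.0706). Counts over all genes at an adjusted p below 0.05 moved more. In NeuN- they were, by edgeR, by DESeq2, by the likelihood ratio test and as the range with single libraries left out, 102, 599, 356 and 37 to 845 for Mutyh-/- against WT, 109, 586, 369 and 58 to 96 for Ogg1-/-, and 57, 466, 302 and 23 to 77 for DKO. In NeuN+ they were 193, 1226, 1138 and 69 to 1903 for Mutyh-/-, 331, 764, 733 and 72 to 212 for Ogg1-/-, and 149, 636, 564 and 42 to 198 for DKO. Without a filter the NeuN+ counts were 1450, 679 and 573 and the NeuN- DKO count 108. With the replicate block the Ogg1-/- and DKO counts were 502 and 338 in NeuN+, and the DKO count 93 in NeuN-. With only the 2 genotypes compared, NeuN+ had 391, 836 and 239, and NeuN- Ogg1-/- 354 and DKO 10. The causes were not tested.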
